A study of Mus musculus with 34 samples.

Results

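CpG island methylation was compared between mouse embryonic stem (ES) cells that had been differentiated in culture and a pair of pancreatic endocrine tumour lines. The 7 arrays are all the arrays of these groups among the 34 of the series: 5 of differentiated ES cells and 2 of the lines. Per the labels, the line TT2 gave rise to the embryoid bodies, aggregates of differentiating cells, and to the cells given retinoic acid, 1 array each. The line EB5 gave rise to the endoderm, with 2 arrays, and to the mesoderm, with 1. The retinoic acid treatment lasted 8 days. The methods name J1 as the treated line, where the labels and a figure legend of the study name TT2. Endoderm and mesoderm were sorted with reporters for Gsc and Sox17 after Activin induction, so their cells carry both reporter alleles. The tumour lines were Min6, a beta cell line, and aTC, an alpha cell line, and each was measured on 1 array. Both lines come from islet tumours of mice that expressed the SV40 T antigen in islet cells, so each is a single long-passaged tumour derivative and not a sample of islets. Adult tissue served as the reference, with 16 arrays from 8 tissues of mice 3 months old, 2 arrays for each tissue. The tissues came from C57Bl/6 mice per the methods. Teratomas, also used for comparison, were grown from J1 per the labels, where the methods give D3,C4. Ex vivo beta cells were sorted from islets of Pdx1-GFP transgenic mice per the supplement. Only DNA methylation was measured, so the cell types named in the labels could not be checked against expression markers. The labels name different lines or treatments within each of the 2 groups. They do not say whether the endoderm and mesoderm arrays from EB5 came from separate cultures. The p-values measure only the spread between the arrays used.

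Methylation was measured by methylated DNA immunoprecipitation (mDIP), in which an antibody against 5-methylcytidine pulls down methylated fragments, and the bound and input DNA are labelled with different dyes and hybridised together. The log ratio of bound to input was turned into a Z-score over all probes of an array, and the mean Z of the probes of an island, given below in Z units, is called its island methylation score. The study's own score of that name adjusts the Z-scores for the melting temperature of the probes, a step not taken here, so that the limits of 0 and 0.75 are applied to a slightly different scale. A score tells how an island ranks on its own array and is not a percentage of methylated cytosines. A score below 0 was read as unmethylated and a score above 0.75 as methylated. In all, 13275 autosomal islands of 3 to 40 probes were scored. Positions are those of the mouse build mm9 that the array files give, and genes and the place of an island relative to them are those of the array's annotation.

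CpG islands are stretches of DNA rich in the CG dinucleotide that lie at most promoters and, in normal cells, are mostly free of methylation throughout life. Exceptions are the control regions of imprinted genes, methylated on a single parental copy, and the promoters of some germline genes. Many islands at genes that direct development are held silent by polycomb proteins in ES cells, and islands of this kind often become methylated in tumours and in cells kept long in culture.

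The 7 arrays differed in strength of signal. The SD of the log2 ratios was 0.894 to 1.43 on the differentiated arrays and 1.78 and 1.86 on those of Min6 and aTC, and input signals stood at a median of 3.07 to 7.30 times background. Min6 and aTC shared 1 slide and 1 scan day with no differentiated array among them, so slide, day and group cannot be told apart. The retinoic acid array alone of the differentiated set was read with the software version used for the lines. Across all islands the scores of the differentiated arrays correlated among themselves with r of 0.771 to 0.931 and those of Min6 and aTC with r = 0.866, while pairs across the groups gave 0.649 to 0.707, a description over islands that share probes and base composition. At the 980 islands above 0.75 on all adult arrays, the median score was 1.94 in Min6 and 1.71 in aTC against 1.84 to 2.59 on the differentiated arrays, so that only aTC lay below their range.

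The lines and the differentiated ES cells differed at 2011 of the 13275 islands (15.1%) by limma at an adjusted p under 0.05. At 1232 of them (9.28%) the lines were higher and at 779 (5.87%) they were lower. Without regard to the test, the groups did not overlap at 38.7% of islands, with both lines above every differentiated array at 13.9% and below every one at 24.8%. Over all islands the median difference, lines minus differentiated cells, was -0.17, so the lines lay slightly lower at the typical island while the calls leaned the other way. At the islands higher in the lines, the median score was 1.08 in the lines, -0.20 in the differentiated cells and -0.20 in adult tissue. Both lines stood above the highest of the 16 adult arrays at 1000 of these 1232 islands, or 81.2%, against 12.9% of all islands. The same 7 arrays chose the called islands, so such shares, here and at the lower islands, are in part given by the choice. The differentiated arrays all stood above the adult range at only 12 of them. The islands lower in the lines were of another make. Their median score was -0.53 in the lines, 0.40 in the differentiated cells and -0.16 in adult tissue, with both lines below every adult array at 298 (38.3%, against 2124 of all 13275 islands) and all 5 differentiated arrays above every adult array at 106 (13.6%, against 2.67%). Called islands also differed in size, with a median of 7 probes and 877.5 bases where the lines were higher and of 5 probes and 505 bases where they were lower. Over all islands the medians were 5 probes and 657 bases. Islands of only 3 probes made up 9.09% of the higher and 21.3% of the lower islands, against 14.7% of all.

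**Figure D1:**
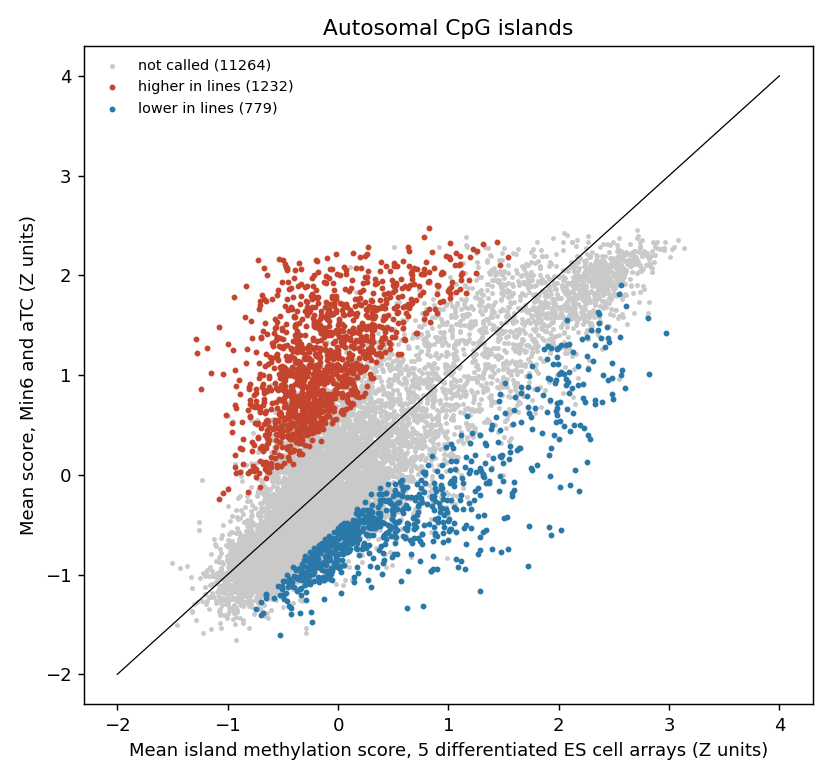
Mean island methylation score on the 5 differentiated ES cell arrays (horizontal axis, Z units) against the mean of Min6 and aTC (vertical axis, Z units), 1 point for each of 13275 autosomal islands, with the line of equal scores. The 1232 islands called higher in the lines (red) rise from scores near and below 0 in the differentiated cells, and the 779 called lower (blue) lie under the line along the whole range.

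The split of the calls depended on the scale. Higher islands made up 61.3% of the calls in the main setting, 48.4% with the deposited table, 72.8% with only probes bright on all 7 arrays, and 97.8% with normexp background correction, where 640 islands were called. Without aTC 961 islands were called, without Min6 1300 and without endoderm 2 1319, the arrays whose absence changed the total by more than 1.5 times. With the software version as a block, a contrast of the lines with the retinoic acid array, 1738 islands were called and 987 of the 2011 kept their call.

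The largest difference above all differentiated arrays lay inside Pou3f3 (chr1:42754743-42755470), which encodes a POU transcription factor of the developing brain. It scored 2.24 in Min6 and 2.08 in aTC, and -1.14 in embryoid bodies, -0.79 with retinoic acid, 0.15 and -1.05 in the endoderm arrays and -0.82 in mesoderm. The lines were apart from every differentiated array there, by 2.89 (SE 0.31, adjusted p = 0.000454), and endoderm 1 was the highest of its group. Foxd3 encodes a forkhead factor of the neural crest and of ES cells. Its 16-probe promoter island (chr4:99322690-99324814) scored 2.14 in Min6 and 2.03 in aTC, against -0.71, 0.037, -0.44, -0.73 and -0.54 on the differentiated arrays in the same order, a difference of 2.56 (SE 0.22, adjusted p = 0.000209). Every adult array was below 0 at both islands. Others among the 10 largest were Csmd1, a large membrane protein of the nervous system, with a difference of 2.72, Mycn, a MYC family oncogene, with 2.72, Dbx1, a homeobox factor of the spinal cord, with 2.65, Slc27a3, an acyl-CoA synthetase of the fatty acid transport family, with 2.60, Kcnip3, a calcium-binding partner of potassium channels, with 2.56, Gas7, a growth arrest gene, with 2.54, and Mecom, a zinc finger factor of blood stem cells, with 2.51. The lowest score of a line at the islands named here was 1.70, for aTC at Dbx1, and the highest of a differentiated array was the 0.15 at Pou3f3.

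**Figure D2:**
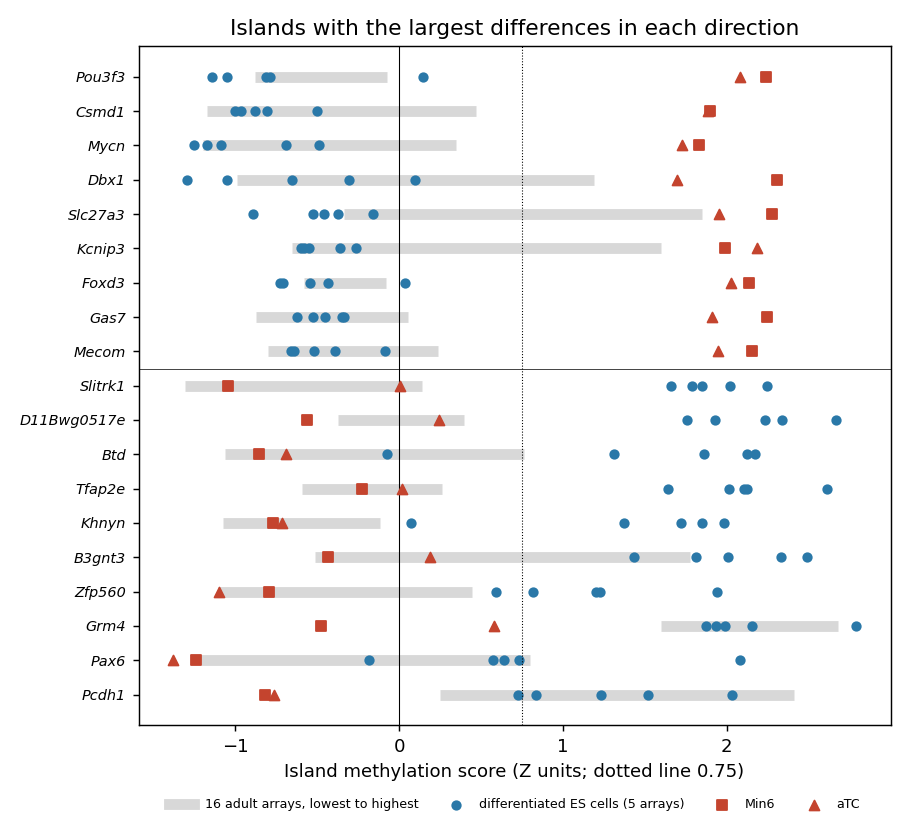
Island methylation scores (Z units) at 9 of the 10 islands with the largest difference above the differentiated arrays and at the 10 with the largest difference below them. Blue points are the 5 differentiated arrays, the red square is Min6, the red triangle is aTC, and the grey bar runs from the lowest to the highest of the 16 adult arrays. In the upper 9 rows both lines lie at 1.70 or above, and in the lower 10 both lie at 0.58 or below.

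Lists of developmental regulators were counted next. Of 147 islands of neural transcription factors, 63 rose in the lines relative to the differentiated cells (42.9%, against 9.28% of all islands) and 7 were lower (4.76%, against 5.87%), with a median difference of 0.73 against -0.17 over all islands. Pou3f3, Dbx1 and Foxd3 led them. Of 66 Hox islands, 24 were higher and 3 lower (median difference 0.54), led by Hoxd11 at 2.17, Hoxa11 at 1.98 and Hoxa4 at 1.97. Hoxa11, a patterning gene of limb and kidney, scored 1.47 in both lines and between -0.68 and -0.19 on the differentiated arrays. Of 70 islands of mesoderm and heart factors, 27 were higher and 7 lower (median 0.43). Among them Tbx18, of the heart and ureter, differed by 2.38 (SE 0.17), Twist1, of cranial mesoderm, by 2.33 (SE 0.19) and Pax3, of muscle precursors and neural crest, by 2.17 (SE 0.34). The counts of higher islands in these 3 groups ran from 42 to 87, from 16 to 34 and from 17 to 35 over the 21 settings tried, and the median difference stayed above 0 in each.

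Endoderm factors showed the same direction. Of their 42 islands, 15 were higher in the lines (35.7%, against 9.28% of all islands) and none lower (against 5.87%), with a median difference of 0.70. Hhex, a homeobox factor of foregut and liver, scored 1.88 in Min6 and 1.64 in aTC and -0.16, 0.083, -0.32, -0.57 and -0.21 on the differentiated arrays (difference 1.99, SE 0.20, adjusted p = 0.00032). Sox17, a regulator of definitive endoderm, was looked up after the other values were seen because its reporter was used in the sort. An 18-probe island inside the gene scored 1.20 and 1.18 in the lines and -0.81 to -0.029 in the differentiated cells. The 2 endoderm arrays, from cells sorted for a Sox17 reporter, were at -0.029, the highest of the differentiated set, and -0.48. Nodal, a signal of the early embryo, and Mixl1, a factor of the primitive streak, differed by 1.91 and 1.75. Over the 21 settings 7 to 27 of the 42 were called higher and at most 3 lower.

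The promoters of 3 of these genes are shown for their CpG content, as 250 bases before the transcription start, 5′ to 3′ on the strand of the gene, from RefSeq on GRCm38.p6, with each CG in capitals. That build is not the one of the probes, so no probe was placed on them. Foxd3 (chr4:99656049-99656298, plus strand) held 21 CG, a number reached by 16.3% of the 32851 RefSeq promoters of the same length. Twist1 (chr12:33957421-33957670, plus strand) held 18, reached by 21.7%, and Hhex (chr19:37434591-37434840, plus strand) held 32, reached by 4.58%.
Foxd3: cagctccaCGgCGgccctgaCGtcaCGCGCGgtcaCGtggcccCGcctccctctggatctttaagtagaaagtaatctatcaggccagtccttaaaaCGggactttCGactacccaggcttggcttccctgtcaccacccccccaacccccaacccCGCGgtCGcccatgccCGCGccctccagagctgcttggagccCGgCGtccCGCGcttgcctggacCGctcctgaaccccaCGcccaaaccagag
Twist1: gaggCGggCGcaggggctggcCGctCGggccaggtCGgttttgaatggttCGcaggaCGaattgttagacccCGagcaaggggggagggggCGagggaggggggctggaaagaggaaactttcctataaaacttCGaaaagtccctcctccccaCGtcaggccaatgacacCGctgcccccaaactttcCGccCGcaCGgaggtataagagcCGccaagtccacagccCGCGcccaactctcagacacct
Hhex: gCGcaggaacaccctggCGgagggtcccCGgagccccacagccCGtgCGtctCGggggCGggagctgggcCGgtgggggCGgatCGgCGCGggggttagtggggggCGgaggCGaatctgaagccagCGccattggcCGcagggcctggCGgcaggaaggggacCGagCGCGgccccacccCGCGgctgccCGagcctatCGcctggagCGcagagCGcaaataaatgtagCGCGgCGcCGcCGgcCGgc
Over all islands that overlap a promoter of 1 named gene and matched the table, the median number of CG was 20 where the lines were higher (433 islands), 16 where they were lower (284) and 19 where no difference was called (4695).

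The lists were not tested against each other. Of 96 islands of Wnt, BMP and FGF signalling genes, 24 were higher (25%) and 2 lower (2.08%), among them the islands of Fgf11, a fibroblast growth factor homologue (2.14), Bmp7, a bone morphogenetic protein (1.47), and Fzd8, a Wnt receptor (1.41). The last pair rested on unequal lines. Bmp7 scored 1.19 in Min6 and 0.20 in aTC, and Fzd8 0.27 and 1.47, and neither was called with the software block. Of 36 islands of pluripotency genes, 11 were higher (30.6%) and 3 lower (8.33%), with a median difference of 0.51, led by Mycn. Tbx3, a T-box factor of ES cells and of limb and heart, followed Nodal with a difference of 1.90. Of 71 islands of tumour suppressors and cell cycle inhibitors, 12 were higher (16.9%) and 3 lower, and the median difference was -0.13, near that of all islands. Sfrp1, a secreted Wnt inhibitor, scored 1.34 and 1.77 in the lines and -0.78 to -0.42 in the differentiated cells. Genes of DNA methylation and polycomb machinery had 5 higher and 3 lower of 53 islands, or 9.43% and 5.66%, close to the 9.28% and 5.87% of all islands. Their largest differences were at Cbx7, a polycomb subunit, 1.79 higher, Dnmt3a, a de novo DNA methyltransferase, 1.74 higher and Mbd1, a methyl-CpG binding protein, lower by 1.39 on the same scale.

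Ribosomal protein genes, in use in every cell, had 3 higher and 5 lower of 84 islands (3.57% and 5.95%, against 9.28% and 5.87% of all islands), and germline genes 1 and 1 of 33 (3.03% each). With centred log2 ratios 14 of the 84 ribosomal islands were lower, against 1616 of all 13275 islands. In that setting 7 of the 33 germline islands were higher, against 2219 of all. With the software block 13 germline islands were lower, against 748 of all 13275. The median score of the germline list was 1.60 to 2.31 on the differentiated arrays and 1.58 and 1.62 in the lines, while 3 of its islands were below 0 on all adult arrays. D1Pas1, a helicase gene of the testis, scored 2.30 to 4.10 in the differentiated cells and 2.19 and 2.17 in the lines. No island of the clustered protocadherins, cell adhesion genes of neurons, was called among 12, with a median difference of 0.17. With centred log2 ratios 5 were called higher, against 2219 of all 13275 islands, and with the software block 2, against 990. In ribosomal and germline genes the leading islands were Rps4l at 1.11, Rpl22 at 0.90, D1Pas1 at -0.82, Tuba3a at -0.82 and Hormad1 at -0.79, and of these only Rps4l and Rpl22 passed the test. The median difference of the germline list changed sign with the scale, from -0.54 to 0.83 over the 21 settings, as did those of the islet and tumour suppressor lists.

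**Figure D3:**
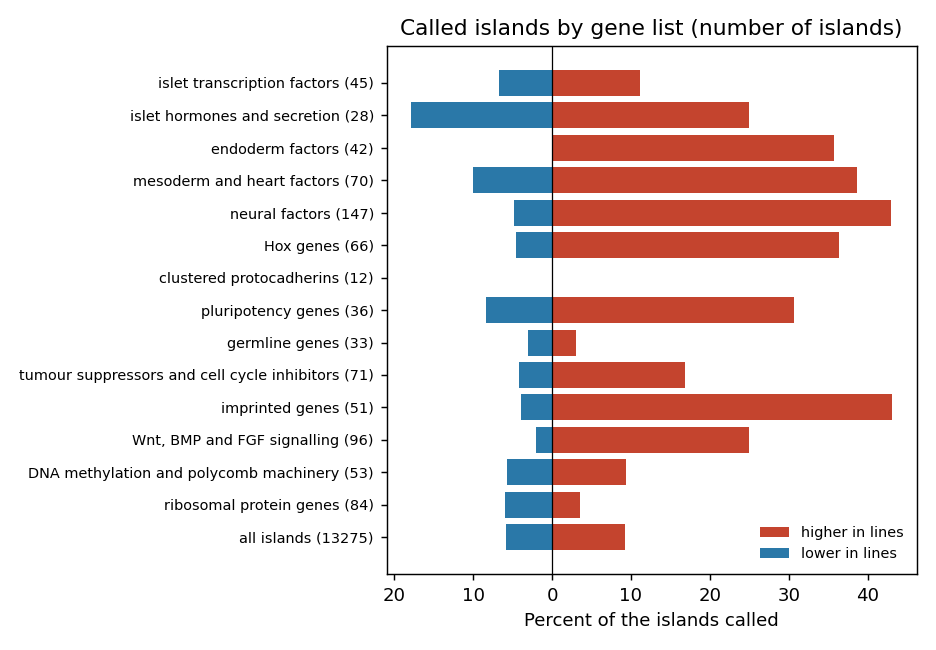
Percent of the islands of each gene list called higher in the lines (red, to the right) or lower (blue, to the left), with the number of islands scored in brackets and all islands at the bottom. Neural, Hox, mesoderm, endoderm and imprinted lists lie at 35.7% to 43.1% higher, against 9.28% of all islands.

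Islet genes had calls in both directions. Of 45 islands of islet transcription factors, 5 were higher in the lines (11.1%, against 9.28% of all islands) and 3 lower (6.67%, against 5.87%). Of 28 islands of hormone and secretion genes, 7 were higher (25%) and 5 lower (17.9%). With the software block the counts were 3 higher and 8 lower for the factors and 7 and 0 for the hormone and secretion genes. Of all 13275 islands 990 were higher and 748 lower in that setting. The 3 lower ones among the transcription factors were 2 islands of Pax6 and 1 of Neurod1, both regulators of endocrine cells and neurons. The Pax6 promoter island with the larger difference (chr2:105512616-105512987) scored -1.24 in Min6 and -1.38 in aTC, and 0.57, 2.08, 0.64, 0.73 and -0.19 on the differentiated arrays, and ex vivo beta cells scored -0.90. Retinoic acid treated cells were thus the highest and mesoderm the lowest of the differentiated set, with no overlap with the lines (difference -2.08, SE 0.47, adjusted p = 0.0175). Without either line this island of Pax6 lost its call (adjusted p = 0.0741 and 0.112). The island inside Neurod1 scored -0.44 and -0.62 in the lines and 0.43 to 2.46 in the differentiated cells, with endoderm 1 at the top. Sst, the somatostatin gene of delta cells, was lower in the lines by 1.23 on the difference scale (-0.30 and -0.20 against 0.14 to 1.67, adjusted p = 0.0353). Its call was lost in 9 of the alternative settings that scored it. On the higher side stood Insm1, a zinc finger factor of endocrine precursors, whose promoter probes scored 2.04 and 2.24 in the lines, 1.31 in ex vivo beta cells and -0.37 to 0.0071 in the differentiated cells. Sox9, a factor of pancreatic progenitors and ducts, differed by 1.76. There both lines, at 1.62 and 1.82, lay within the adult range of 0.16 to 2.20, and ex vivo beta cells scored 0.038. The GABA-synthesising enzyme gene Gad2 differed by 1.22, with the highest adult array at -0.16. The calcium channel gene Cacna1a had islands in both directions, the largest 1.49 higher. That island scored 1.69 in Min6 and 1.72 in aTC, but 2.24 in ex vivo beta cells and -0.36 to 1.59 in adult tissue.

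Min6 and aTC differed from each other at some islet genes, described here after their values were seen and without a test, since each line had 1 array. Over all 45 islands of islet transcription factors the medians were close, -0.305 in Min6 and -0.311 in aTC, so the genes below are picked examples. Pdx1, the homeobox regulator of beta cells, held 2 islands inside the gene. The first scored -0.55 in Min6 and 1.77 in aTC, and the second -0.91 and 1.96, and ex vivo beta cells scored -0.31 and -0.97. The differentiated arrays ran from 0.056 to 1.02 and from -0.71 to 1.38, highest with retinoic acid at both. Mafa, a beta cell activator of insulin, went the same way, with -0.22 in Min6 and 0.94 in aTC. None of these islands was called between the groups.

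The largest differences below the differentiated arrays were called in the main setting, but all 10 lost their call with normexp, where their adjusted p was 0.117 to 0.254. Slitrk1, a neuronal membrane protein, differed most. It scored -1.05 in Min6 and 0.0027 in aTC and 1.85, 1.79, 2.02, 2.24 and 1.66 on the differentiated arrays (chr14:109310483-109310754, difference -2.43, SE 0.27, adjusted p = 0.000568). With normexp the difference at Slitrk1 was -1.37 (adjusted p = 0.174). All 5 differentiated arrays lay above the highest adult array, at 0.14, and both lines lay within the adult range. The undifferentiated parents EB5 and TT2 were high there as well, at 1.84 and 1.89. Tfap2e, an AP-2 transcription factor, had the same form, with 1.64 to 2.61 in the differentiated cells, -0.23 and 0.019 in the lines and at most 0.26 in adult tissue. The gene D11Bwg0517e scored 1.76 to 2.67, against -0.56 and 0.24 in the lines. EB5 and TT2 scored 0.66 and 1.34 at Tfap2e and 2.26 and 2.69 at D11Bwg0517e. Zfp560, a zinc finger gene, scored 0.59 to 1.94 at its promoter, against -0.794 and -1.097 in the lines and 0.76 and 1.04 in EB5 and TT2. Btd, the biotin-recycling enzyme biotinidase, and Khnyn, an RNA-binding protein, split the differentiated set. They scored 1.31 to 2.17 and 1.37 to 1.98 on 4 arrays but -0.076 and 0.070 on the retinoic acid array, and lost their calls with the software block. Here EB5 and TT2 were low, at -0.75 and -0.78 for Btd and -0.33 and 0.043 for Khnyn. Another 3 of the 10 were methylated in adult tissue as well, or varied there. Grm4, a glutamate receptor, scored 1.60 to 2.68 on the adult arrays, 1.87 to 2.79 in the differentiated cells and -0.47 and 0.58 in the lines. Pcdh1, a protocadherin, and B3gnt3, a glycosyltransferase, had adult ranges of 0.25 to 2.41 and -0.51 to 1.77. EB5 and TT2 scored -0.25 and 0.19 at Pcdh1 and 1.15 and 1.99 at B3gnt3.

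The promoters of Zfp560 and Sst are shown in the same way, for islands that were lower in the lines. Zfp560 (chr9:20385159-20385408, minus strand) held 19 CG, reached by 19.7% of promoters, and Sst (chr16:23890845-23891094, minus strand) held 8, reached by 43.0%.
Zfp560: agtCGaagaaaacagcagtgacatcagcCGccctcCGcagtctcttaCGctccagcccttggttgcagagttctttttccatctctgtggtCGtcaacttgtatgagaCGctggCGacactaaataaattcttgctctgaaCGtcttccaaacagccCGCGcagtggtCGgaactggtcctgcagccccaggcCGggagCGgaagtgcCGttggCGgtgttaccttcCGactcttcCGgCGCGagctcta
Sst: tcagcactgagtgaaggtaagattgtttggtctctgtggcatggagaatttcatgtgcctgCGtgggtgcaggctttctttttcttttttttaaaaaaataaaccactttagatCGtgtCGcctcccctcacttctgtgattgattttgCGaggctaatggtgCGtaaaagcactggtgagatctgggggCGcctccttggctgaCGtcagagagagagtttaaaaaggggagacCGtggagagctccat
Both sequences are given for their density of CG and not as the probed fragments.

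Several genes held islands called in opposite directions, 42 of the 1384 genes with at least 2 islands of a single name. Of the genes named above for a lower island, Tfap2e, D11Bwg0517e, Grm4 and Pcdh1 also held at least 1 island called higher. Cbx7, named for a higher island, also held a lower one, and Nat8l, named below for a lower island, a higher one. Emx2, a homeobox factor of cortex and urogenital tract, had 4 called islands and was picked after its values were seen. The 14-probe island over its start (chr19:59532384-59534551) was higher in the lines, at 0.99 and 1.13 against -0.37 to -0.0066. The 3 islands around it, a promoter island of 3 probes and a pair downstream of 5 and 3 probes, were lower in the lines by 1.89, 1.46 and 1.68. At Wt1, the Wilms tumour factor, a 14-probe island at the promoter was higher by 1.38 while a 4-probe island inside the gene was lower, with -0.86 and -0.53 in the lines and 0.76 to 1.45 in the differentiated cells (difference -1.85, SE 0.23). At Tbx3 the 12-probe promoter island was 1.90 higher and a 4-probe island inside the gene lower by 1.26.

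The next question was how many islands that stay unmethylated in adult tissue had become methylated in each kind of culture. Of the 13275 islands, 4447 were below 0 on all 16 adult arrays. Above 0.75 were 62 of them in embryoid bodies, 21 with retinoic acid, 82 and 67 in the endoderm arrays and 56 in mesoderm, a mean of 57.6 ± 22.6 (SD, n = 5). In Min6 it was 216 and in aTC 315, a mean of 265.5 ± 70.0 (SD, n = 2). The count in the lines was 4.61 times that in the differentiated cells, with no overlap between the groups (exact permutation test over 21 splits, two-sided p = 0.0476, the smallest that 5 against 2 arrays allow). Ex vivo beta cells had 6, and the undifferentiated parents EB5 and TT2 had 5 and 12. On the retinoic acid array, which shares the software version of the lines, the count was the lowest of the differentiated set. With normexp the counts overlapped, endoderm 1 reaching 305 against 268 in Min6 (p = 0.0952).

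**Figure D4:**
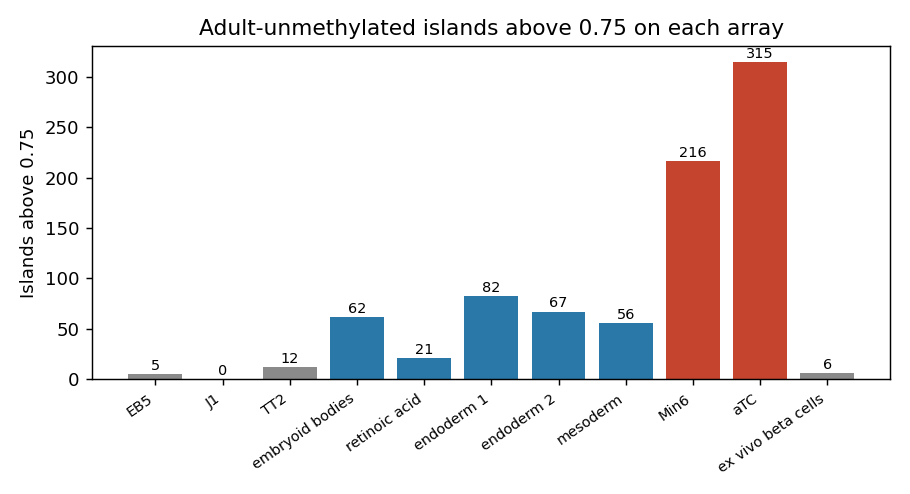
Number of the 4447 adult-unmethylated islands that scored above 0.75 on each array, with undifferentiated ES cells and ex vivo beta cells in grey, differentiated ES cells in blue and the lines in red. The differentiated arrays reach 21 to 82 islands and the lines 216 and 315.

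The islands above 0.75 in the lines and in the differentiated cells overlapped in part. At least 1 differentiated array was above 0.75 at 129 of the 4447 (2.90%) and at least 1 line at 391 (8.79%), and 41 were in both sets, 31.8% of the first and 10.5% of the second. Within the lines, 140 islands were above 0.75 in both, 64.8% of those of Min6 and 44.4% of those of aTC. Within the differentiated cells 77 of the 129 were above it on at least 2 arrays and 4 on all 5. At the 140 islands of both lines, the mean score was -0.29 to -0.027 on the 5 differentiated arrays, -0.31 in ex vivo beta cells, -0.44 in adult tissue and -0.49 in embryos. At the 129 islands of the differentiated cells, the mean score was -0.028 in Min6 and 0.073 in aTC, and 0.11 with retinoic acid against 0.54 to 0.82 on the other 4. By position, at least 1 line was above 0.75 at 17.7% of the 538 adult-unmethylated islands inside genes, 15.4% of 428 away from genes, 10.2% of 98 downstream, 7.56% of 2818 at promoters and 1.24% of 565 at promoters shared by a divergent gene pair. In the differentiated cells the shares were 8.55%, 4.91%, 8.16%, 1.81% and 0.531% in that order, and these positions were not tested against each other.

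Of the islands above 0.75 in both lines, 64 were below 0 on all 5 differentiated arrays. The 5 with the highest scores were Tbx18 (2.10 in Min6 and 1.77 in aTC), Gab1, an adaptor of receptor signalling (1.78 and 1.74), Barhl2, a homeobox factor of retina and brain (1.69 and 1.65), Foxe1, a forkhead factor of the thyroid (1.73 and 1.63), and Sp8, a zinc finger factor of limb and brain (1.59 and 2.01). Over these 5 islands, the differentiated arrays ran from -0.79 to -0.059 and adult tissue from -0.83 to -0.075. All but Gab1 encode developmental transcription factors.

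In reverse, 56 islands were above 0.75 on at least 1 differentiated array and below 0 in both lines, and none of them on all 5, a level that only 4 adult-unmethylated islands reached. The highest minimum over the differentiated arrays was at Irx4, a homeobox factor of the heart ventricle. Its island downstream of the gene scored 1.299, 1.052, 0.772, 0.727 and 1.095 on the differentiated arrays against -0.095 and -0.64 in the lines (difference -1.36, SE 0.22, adjusted p = 0.00332). Rbpjl, a transcription factor of pancreatic acinar cells, scored 0.68 to 1.49 against -1.09 and -0.76. Ctsa, a lysosomal protease, scored 0.63 to 1.08 against -0.19 and -0.23, and Nefm, a neurofilament subunit, 0.61 to 1.85 against -0.91 and -0.83. Mbd1 completed the 5, with 0.48 to 1.00 in the differentiated cells and -0.43 and -0.61 in the lines. The undifferentiated parents EB5 and TT2 scored 0.42 and 0.95 at Irx4 and 2.32 and -0.15 at Nefm. At Rbpjl, Ctsa and Mbd1 they ran from -0.066 to 0.48. With normexp the calls at Irx4, Rbpjl, Ctsa and Mbd1 were lost (adjusted p = 0.129, 0.0576, 0.196 and 0.0674), and that at Nefm was not.

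Methylation shared by all 7 arrays was found at 2 adult-unmethylated islands. They were found after their values were seen, since each gene was represented above by its island with the largest difference. Of these, a 13-probe island of Slc32a1, the vesicular transporter of GABA and glycine (chr2:158439467-158440727), scored 2.44, 2.66, 1.42, 1.52 and 1.26 and 1.22 and 1.76. Among the islands with the largest difference of each gene, the highest minimum over the 7 arrays was that of Nhlh2, a neuronal basic helix-loop-helix factor. Its 15-probe island scored 0.61 to 1.40 in the differentiated cells and 1.85 and 1.14 in the lines, while no adult array was above -0.18. Bhlha9, a limb factor, scored 0.56 to 1.21 and 0.44 and 0.51. Dtx1, a Notch pathway ubiquitin ligase, scored 0.33 to 1.09 and 1.35 and 1.17. Vamp5, a vesicle protein of muscle, and the other island of Slc32a1 had minima of 0.21 and 0.19. Of these 5, only this island of Slc32a1 was called (difference 0.63, adjusted p = 0.0498), and its call was lost in 9 of 20 alternative settings.

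The last comparison concerned the islands methylated throughout adult tissue. Of 980 islands above 0.75 on all 16 adult arrays, 27 were higher in the lines (2.76%, against 9.28% of all islands). Lower were 88 (8.98%, against 5.87%), and the median difference was -0.40 against -0.17 over all islands. This median was taken on the Z scale alone. With centred log2 ratios that of the germline list, whose adult median was 2.585, went from -0.30 to 0.83. Below 0 were 10, 13, 8, 9 and 8 of the 980 islands on the differentiated arrays in the order used above, 22 in Min6 and 3 in aTC. The means of 9.6 ± 2.07 (SD, n = 5) and 12.5 ± 13.4 (SD, n = 2) gave p = 0.571 in an exact permutation test, and the lines stood on both sides of the differentiated arrays. With islands of at least 5 probes the difference was -5.9 (exact permutation test, p = 0.0476), with fewer such islands in the lines. The islands above 0.75 on all differentiated arrays that were lowest in the lines included that of Slc1a3, a glutamate transporter of glia, at -0.68 and -0.19 against 1.03 to 2.08 (difference -1.94, SE 0.28, adjusted p = 0.002). Fam163b, Nat8l, an enzyme that makes N-acetylaspartate, Grm4 and Fibcd1, a chitin-binding membrane protein, followed, with the higher line at 0.57 to 0.64. These islands, Slc1a3 included, lost their calls with normexp (adjusted p = 0.194 to 0.39). Nat8l and Fibcd1 also lost theirs with centred log2 ratios (adjusted p = 0.0851 and 0.0602).

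Of islands with a single gene name that were methylated in adult tissue and in both lines, the 5 lowest in the differentiated cells all belonged to imprinted genes. Imprinted genes are expressed from a single parental copy, under regions methylated on the egg's or the sperm's copy. Zrsr1, a maternally imprinted splicing factor gene, scored -0.95, -1.07, -1.24, -0.37 and -0.57 on the differentiated arrays, 1.71 in Min6, 1.47 in aTC and 1.53 to 2.86 in adult tissue (chr11:22872000-22873052, difference 2.43, SE 0.24, adjusted p = 0.000337). Peg10, a paternally expressed gene derived from a retrotransposon, scored -0.79 to -0.33 against 1.93 and 1.67 (chr6:4697308-4698444, difference 2.36, SE 0.18, adjusted p = 0.00018). The island inside Kcnq1 scored -0.86 to -0.34 against 1.28 and 1.31, that inside Grb10, a growth inhibitor, -0.67 to 0.16 against 1.72 and 1.76, and that inside Igf2r, a scavenger of the growth factor IGF2, -0.90 to 0.22 against 1.68 and 1.40. The highest score of a differentiated array at these 5 was 0.22 and the lowest of an adult array was 1.50.

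Of 51 islands of imprinted genes 22 were higher in the lines (43.1%, against 9.28% of all islands). Another 2 were lower (3.92%, against 5.87%), and the median difference was 0.83 against -0.17 over all islands. The 22 islands of the list that were above 0.75 on all adult arrays, a subset drawn after the values were seen and given without a test, came from 19 names. Both lines were above 0.75 at all 22. Their median was 0.40 in embryoid bodies, 0.026 with retinoic acid, 0.42 in both endoderm arrays and 0.47 in mesoderm, against 1.80 in Min6, 1.57 in aTC and 2.09 to 3.11 on the adult arrays. Between 12 and 16 of the 22 were below 0.75 on a differentiated array (54.5% to 72.7%), against 2.55% to 4.29% of the 980. At 13 of the 22 the lines were called higher, which is 13 of the 27 such calls among the 980, and none was called lower. All 5 differentiated arrays were below 0.75 at 9 of them, out of 12 such islands among the 980. Embryos of 8.5 to 12.5 days had medians of 2.19 to 2.92, and ex vivo beta cells 1.62. The teratomas, from J1 by their labels and so not from EB5 or TT2, had 1.61 and 1.89.

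The low scores at imprinted islands were also measured in the undifferentiated parents, each on a single array. The median over the 22 islands was 0.17 in EB5, the parent of the endoderm and mesoderm, and 0.22 in TT2, the parent of the embryoid bodies. J1 had 3.05. The retinoic acid array, from TT2 by its label and a figure legend of the study and from J1 by the methods, lay with TT2. The differentiated cells were not low at all of them. One island of Gnas, an imprinted G protein gene (chr2:174110137-174111779), scored -0.40 in EB5 and 0.44 in TT2 but 1.00 to 2.43 on the differentiated arrays. At Nap1l5 the endoderm and mesoderm arrays scored 1.72 to 2.01 and the parent EB5 0.05, while embryoid bodies scored 0.23 and retinoic acid treated cells -0.81. The islands of Dlk1, a Notch-like ligand, downstream of Usp29 and the 2 of Trappc9 scored 1.71 to 3.77 on every differentiated array. Usp29 also shares a promoter island with Peg3, and there the differentiated arrays were low, at -1.03 to -0.39. The lines scored 1.81 and 1.60 at that promoter (difference 2.41, adjusted p = 0.000209).

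**Figure D5:**
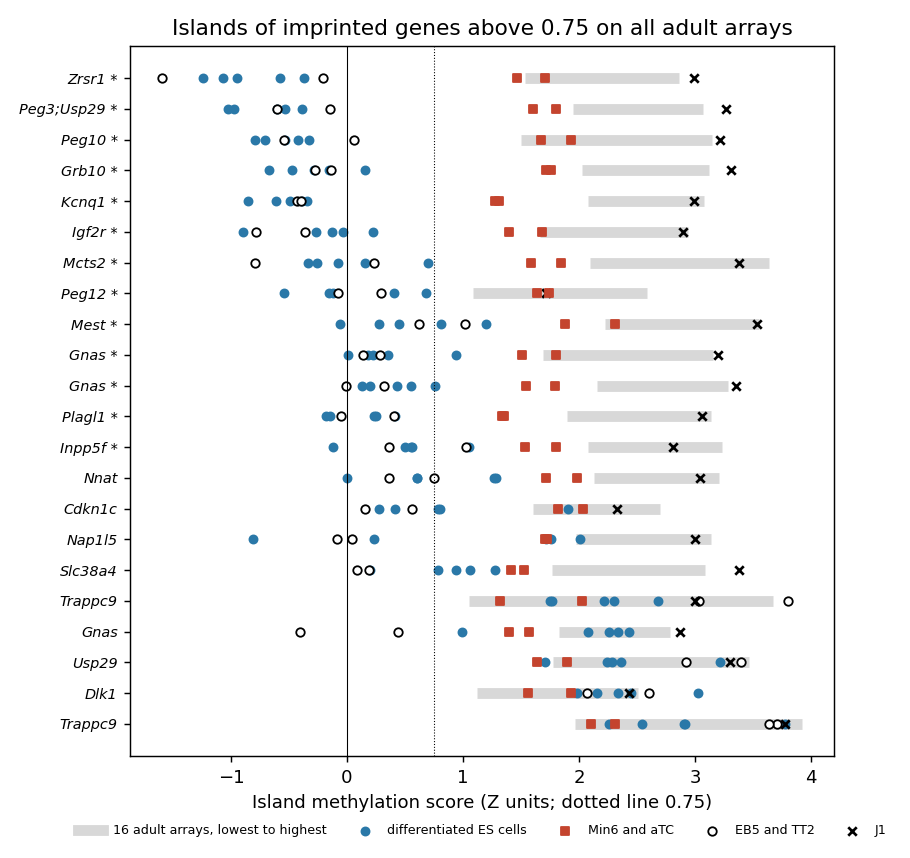
Island methylation scores (Z units) at the 22 islands of imprinted genes above 0.75 on all 16 adult arrays, with the adult range in grey, differentiated arrays in blue, the lines as red squares, EB5 and TT2 as open circles and J1 as a cross; asterisks mark the 13 islands called between lines and differentiated cells. In the upper 13 rows the lines lie at 1.28 or above and most of the differentiated arrays lie left of the dotted line at 0.75.

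Zrsr1 and Plagl1, a zinc finger growth regulator whose promoter island scored -0.18 to 0.41 in the differentiated cells and 1.36 and 1.34 in the lines, are shown as promoters of imprinted genes. Zrsr1 (chr11:22971755-22972004, plus strand) held 8 CG, reached by 43.0% of promoters, and Plagl1 (chr10:13090582-13090831, plus strand) held 19, reached by 19.7%.
Zrsr1: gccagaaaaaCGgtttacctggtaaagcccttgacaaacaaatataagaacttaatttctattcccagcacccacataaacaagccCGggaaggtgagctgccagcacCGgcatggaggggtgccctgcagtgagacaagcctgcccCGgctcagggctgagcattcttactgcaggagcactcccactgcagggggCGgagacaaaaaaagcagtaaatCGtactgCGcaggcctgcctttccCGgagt
Plagl1: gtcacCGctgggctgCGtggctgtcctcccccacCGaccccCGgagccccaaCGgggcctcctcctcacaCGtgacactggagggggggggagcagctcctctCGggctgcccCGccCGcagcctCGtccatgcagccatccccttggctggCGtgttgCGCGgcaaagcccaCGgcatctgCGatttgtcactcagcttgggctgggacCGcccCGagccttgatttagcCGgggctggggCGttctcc
Dio3, an imprinted enzyme that inactivates thyroid hormone, was also higher in the lines, from another adult level. Its promoter island scored -0.82 to 0.65 in adult tissue and 2.01 and 1.93 in the lines against -0.60 to 0.44 in the differentiated cells (difference 2.21, SE 0.26, adjusted p = 0.000676).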

How the data were processed

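DNA methylation was measured by mDIP on 2-colour Agilent CpG island arrays, 34 in the series, with bound DNA in Cy5 and input in Cy3. The authors scanned and extracted the arrays with Agilent Feature Extraction. The deposited scanner files hold background-subtracted, linearly normalised log10 ratios of bound to input and the spot intensity of each channel, and the deposited series table holds the authors' own score per probe, per the methods a Z-score of the log ratio set by probe melting temperature, which correlated with the scanner values with r of 0.958 to 0.991 and was used as an alternative.

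The log10 ratios of unflagged, non-control probes were averaged over spots and turned into Z-scores within each array, with no melting temperature step. Probes with an mm9 position (88411 of 88737) were joined by name across 3 array designs and chained into islands at gaps up to 500 bases, keeping 3 probes or more. Of 13653 islands, 378 on X and Y were dropped. Of the 11359 gene names in the array annotation, 257 matched no RefSeq entry. Differences were fitted with limma 3.58.1 in R 4.3.3 on the 7 arrays with Benjamini-Hochberg adjustment. Counts per array were compared by an exact permutation test that listed every split of the arrays, in Python 3.11.15 with numpy 2.4.6. The fit was tested on simulated data with 200 changed islands, recovering 55.5% of changes of 1 and 99.5% of changes of 2 Z units. The number of arrays limits the precision.

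Named islands were, for genes of a single name and 1 island each, the 10 largest called differences in each direction without overlap, the 5 most extreme in each class set by adult tissue, and the 3 largest in each gene list. The members and lists were chosen with earlier results of these data known. Results at a few named items are not reported here.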

Additional observations from a re-analysis of the deposited data

Results flagged for a closer look

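At 6 of the 78 groups of differentiated arrays examined at named islands, 1 array stood apart from the other 4 by more than Dixon's critical value of 0.71. Chance gives about 1 in 20, and 980 of all 13275 islands (7.38%) were beyond this value. Endoderm 1 scored 0.1465 at Pou3f3 (others -1.14 to -0.79) and 0.4783 at Mbd1 (others 0.90 to 1.00). Endoderm 2 scored -0.4405 at Foxe1 (others -0.24 to -0.16). The retinoic acid array scored 0.1885 at Slc32a1 (others 0.59 to 0.71), 3.635 at Hormad1 (others 2.08 to 2.52) and -0.3462 at Bmp7 (others -0.95 to -0.81).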

How the results depend on the processing

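The count of called islands, 2011, became 3835 with centred log2 ratios (2219 higher and 1616 lower), 640 with normexp on median signals (626 and 14), 3909 with all 34 arrays in the model (2091 lower), 1143 with the equal-variance test of the methods (744 and 399; 3834 unadjusted), 1589 with bright probes (432 lower) and 2885 with array weights (1416 lower). With slide as a random block it was 2830 (1326 lower). Leaving out 1 array at a time gave 961 to 2352 calls, 788 to 1271 higher and 173 to 1081 lower. Lower calls fell to 409 without embryoid bodies, 346 without endoderm 2, 405 without mesoderm, 196 without Min6 and 173 without aTC. Higher islands were 46.5% of calls with all 34 arrays and 50.9% with array weights, against 61.3%. The difference in adult-unmethylated islands above 0.75, 207.9, was 230.6 with normexp (p = 0.0952) and 158.4 to 257.4 without 1 array, where the design cannot pass 0.05. That in adult-methylated islands below 0, 2.9, was -29.0 with normexp, -3.0 with the deposited table, -0.8 with bright probes, 0.0 with the median over probes, -5.9 with at least 5 probes (p = 0.0476) and -6.6 to 12.4 without 1 array. Named differences changed sign at Bhlha9 (0.083), D1Pas1 (0.5389), Tuba3a (0.4255) and Hormad1 (0.3545) with log2 ratios, at Hormad1 with normexp (0.0332), and without aTC at Vamp5 (-0.0247) and Pcdha12 (-0.0386), which without Min6 were 0.8283 and 1.1335. The cause was not tested. Of 65 called named islands, 38 kept their call in every one of the 20 alternatives in which they were scored. Not every island was scored in each. With at least 5 probes, 47 of the 76 named islands were scored. Normexp on median signals was chosen after seeing the data, and normexp on mean signals was not run, since those columns were not used here. No paired analysis was possible because the groups share no replicate numbers that pair their arrays.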
